A study of Rattus norvegicus with 12 samples.

Results

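The prostaglandin genes were followed in ELT3 cells and in a rapamycin-resistant derivative of them, called the resistant subline here, each treated with rapamycin or with its vehicle DMSO. The set held 10 genes, picked by name for their place in prostaglandin synthesis, breakdown and sensing: Pla2g4a, Ptgs1, Ptgs2, Ptges, Ptgis, Hpgd, Ptger2, Ptger4, Ptgir and Ptgfr. They were chosen with earlier results of these data known, so counts and medians over the genes are descriptions and were not tested. Each was measured by 1 probe set, so the set made up 10 of the 23188 probe sets on the array, of which 15049 carried 1 gene symbol.

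ELT3 is a Tsc2-null cell line from a uterine leiomyoma, a smooth muscle tumour, of the Eker rat, and the resistant subline was grown out of 1 ELT3 xenograft tumour of a mouse that had been given rapamycin. The 4 groups were ELT3 in DMSO, ELT3 in 20 nM rapamycin, the resistant subline in DMSO and the resistant subline in 20 nM rapamycin, each for 24 hours with 3 arrays. Both lines lack Tsc2, so no group here had an intact Tsc2 gene, and resistance is represented by 1 line. The labels describe triplicate plates, so the p-values measure the spread between plates of 1 line. The volume and stock strength in the labels would give a higher dose than the 20 nM that they state.

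Prostaglandins are made in steps. Cytosolic phospholipase A2 frees arachidonic acid from membranes, a cyclooxygenase turns it into prostaglandin H2, and terminal synthases turn that into prostaglandin E2 (PGE2), prostacyclin and others. 15-hydroxyprostaglandin dehydrogenase inactivates PGE2, and G protein-coupled receptors sense what leaves the cell: EP2, EP4 and the prostacyclin receptor IP raise cAMP, while the prostaglandin F receptor FP raises calcium. In the uterus these products govern contraction of the smooth muscle, implantation and labour.

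Rat Clariom S arrays were used. The deposited values are log2 signals from RMA, a procedure that corrects background, brings the arrays to 1 distribution and gives 1 value per probe set, so a difference of 1 is a 2-fold change in signal. Medians of the 12 arrays lay between 6.69 and 6.82, and arrays of a group correlated at 0.9928 to 0.9966 across probe sets. The 12 arrays entered 1 limma fit, in which probe sets lend each other information on their spread. Calls needed an adjusted p under 0.05, with the Benjamini-Hochberg method applied to the whole array, and a change of at least 1.5-fold. Adjusted p-values below are from that fit, errors of means are SD with n = 3, and errors of differences are standard errors (SE). An exact permutation test of 3 arrays against 3 allows no two-sided p under 0.1 and was therefore not used for single genes. A level may be compared between groups but not between genes, since probe sets differ in affinity. Detection calls were not used, so a dim signal may be background and a fold against it is a ratio of signals.

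The smooth muscle genes Acta2 and Des were bright in every group, but Myh11, the smooth muscle myosin, was at 4.49 to 4.91 in the group means, below the array medians. With rapamycin 4 of 8 smooth muscle markers rose in ELT3 and 2 in the resistant subline, and none fell. Between the lines 3 were higher and 3 lower in the resistant subline in DMSO, while in rapamycin 3 were lower and 0 higher, Tagln by -3.10 and -2.28 and Acta2 by -0.66 and -1.67. Of 4 epithelial markers 2 were lower in DMSO and 1 in rapamycin: Krt8 was 13.5-fold and 46.5-fold lower in the resistant subline and rose 4.37-fold with rapamycin in ELT3. The mean epithelial level per array ran from 5.70 to 6.40 in ELT3 and from 4.52 to 5.08 in the resistant subline. Of the hormone receptors Esr1 and Pgr, Pgr was lower in the resistant subline in each treatment, and none of 4 mast cell markers was called by limma in any comparison (1 or none at an unadjusted p under 0.05 in each). Markers of fibroblasts moved with the line: 6 of 7 were called higher in the resistant subline in each treatment, and their mean log2 signal per array ran from 9.47 to 10.41 in ELT3 and from 12.95 to 13.35 in the resistant subline. Of 9 leukocyte markers measured, the pan-leukocyte gene Ptprc had group means of 4.06 to 4.33, while Cd3e had 4.82 and 5.52 in ELT3 and 10.78 and 11.61 in the resistant subline. In DMSO 2 of the 9 were called higher and 1 lower in the resistant subline, and their mean level per array ran from 6.06 to 6.28 in ELT3 and from 6.68 to 6.94 in the resistant subline. Of 7 endothelial markers 1 was higher and 1 lower in DMSO, with mean levels from 4.96 to 5.19 and from 5.46 to 5.90, with Kdr at 6.27 and 5.42 in ELT3 against 13.50 and 11.67 in the resistant subline and Cdh5 at 4.5 to 4.67 in all groups. Of all probe sets, 7.3% were called higher and 7.56% lower in the resistant subline in DMSO, and 8.86% and 7.92% in rapamycin. With rapamycin 7.47% of all probe sets rose and 8.45% fell in ELT3, and 5.65% and 4.98% did in the resistant subline. The part of the marker genes in the results below was not tested. In bulk RNA of this kind, fewer cells that express a gene cannot be told apart from less of its RNA per cell.

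The 4 members with the largest line differences or a shared chromosomal position were Ptgs2, Ptges, Hpgd and Pla2g4a, and the DNA just before their start sites is shown so that the genes behind the values can be seen. Each run is the 250 bases before the gene start in the RefSeq annotation of GRCr8, written 5′ to 3′ on the gene's strand, and capitals mark matches to the motifs listed after them.

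Ptgs2, chr13:64713813-64714062, plus strand: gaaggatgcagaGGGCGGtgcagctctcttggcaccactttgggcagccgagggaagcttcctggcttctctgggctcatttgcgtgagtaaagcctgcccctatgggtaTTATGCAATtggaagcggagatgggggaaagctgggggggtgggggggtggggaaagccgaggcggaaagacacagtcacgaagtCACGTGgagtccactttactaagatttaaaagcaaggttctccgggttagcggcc
Pla2g4a, chr13:64572353-64572602, minus strand: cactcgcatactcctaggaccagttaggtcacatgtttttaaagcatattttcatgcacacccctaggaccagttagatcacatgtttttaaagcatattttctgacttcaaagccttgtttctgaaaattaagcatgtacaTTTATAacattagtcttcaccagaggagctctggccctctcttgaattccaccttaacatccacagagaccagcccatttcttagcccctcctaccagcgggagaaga
Ptges, chr3:34586988-34587237, minus strand: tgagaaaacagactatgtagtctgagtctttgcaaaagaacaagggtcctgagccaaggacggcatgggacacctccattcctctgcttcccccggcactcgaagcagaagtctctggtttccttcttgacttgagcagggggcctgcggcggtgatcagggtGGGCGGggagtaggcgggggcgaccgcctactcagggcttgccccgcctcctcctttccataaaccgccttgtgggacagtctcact
Hpgd, chr16:39034832-39035081, minus strand: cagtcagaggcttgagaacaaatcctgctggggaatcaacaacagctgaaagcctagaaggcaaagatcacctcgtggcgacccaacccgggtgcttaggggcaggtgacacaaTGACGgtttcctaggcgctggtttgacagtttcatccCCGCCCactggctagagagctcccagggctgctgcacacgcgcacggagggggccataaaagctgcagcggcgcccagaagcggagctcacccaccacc

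Both strands of these windows were searched for 8 motifs. The TATA box letters TATAAA were in 12.9% of all 33469 windows of this length, the CRE half-site TGACG in 18.2%, the E-box CACGTG in 5.59%, the AP-1 letters TGANTCA in 6.34%, the C/EBP letters TTNNGNAAT in 10.9%, the GC box GGGCGG in 30.5%, the FOXO letters GTAAACA in 3.21% and the NF-kappaB consensus in 4.24%. The Ptgs2 window held a GC box, a C/EBP match and an E-box, with no overlap between them. The Hpgd window held a CRE half-site and, on the other strand, a GC box. The Ptges window held 1 GC box, and the Pla2g4a window held TATAAA on the other strand only. Windows were found for 9 of the 10 members, Ptgis being the other one. A match says only that these letters stand in the window.

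The line difference in DMSO asked how the resistant subline differed from ELT3 without drug. Of the 10 genes, 8 were called, against 14.9% of all probe sets: 6 were higher in the resistant subline (7.3% of all probe sets were) and 2 were lower (7.56% were). Those higher were the PGE2 and prostacyclin synthases Ptges and Ptgis, the dehydrogenase Hpgd and the receptors Ptger2, Ptger4 and Ptgir. Those lower were the phospholipase Pla2g4a and the inducible cyclooxygenase Ptgs2. The arrays of the lines did not overlap for 9 of the 10 genes, as for 36.8% of all probe sets. The median difference over the 10 genes was 1.17 on the log2 scale, beside 0.01 over all probe sets.

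In rapamycin the same 8 genes were called in the same directions, against 16.8% of all probe sets (8.86% higher and 7.92% lower). A call in 1 direction in both treatments was met by 9.59% of probe sets. Again 9 genes had arrays that did not overlap, against 37.7%, and the median difference was 1.18 beside -0.02. The treatments use different arrays, but they are the same 2 lines.

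**Figure D1:**
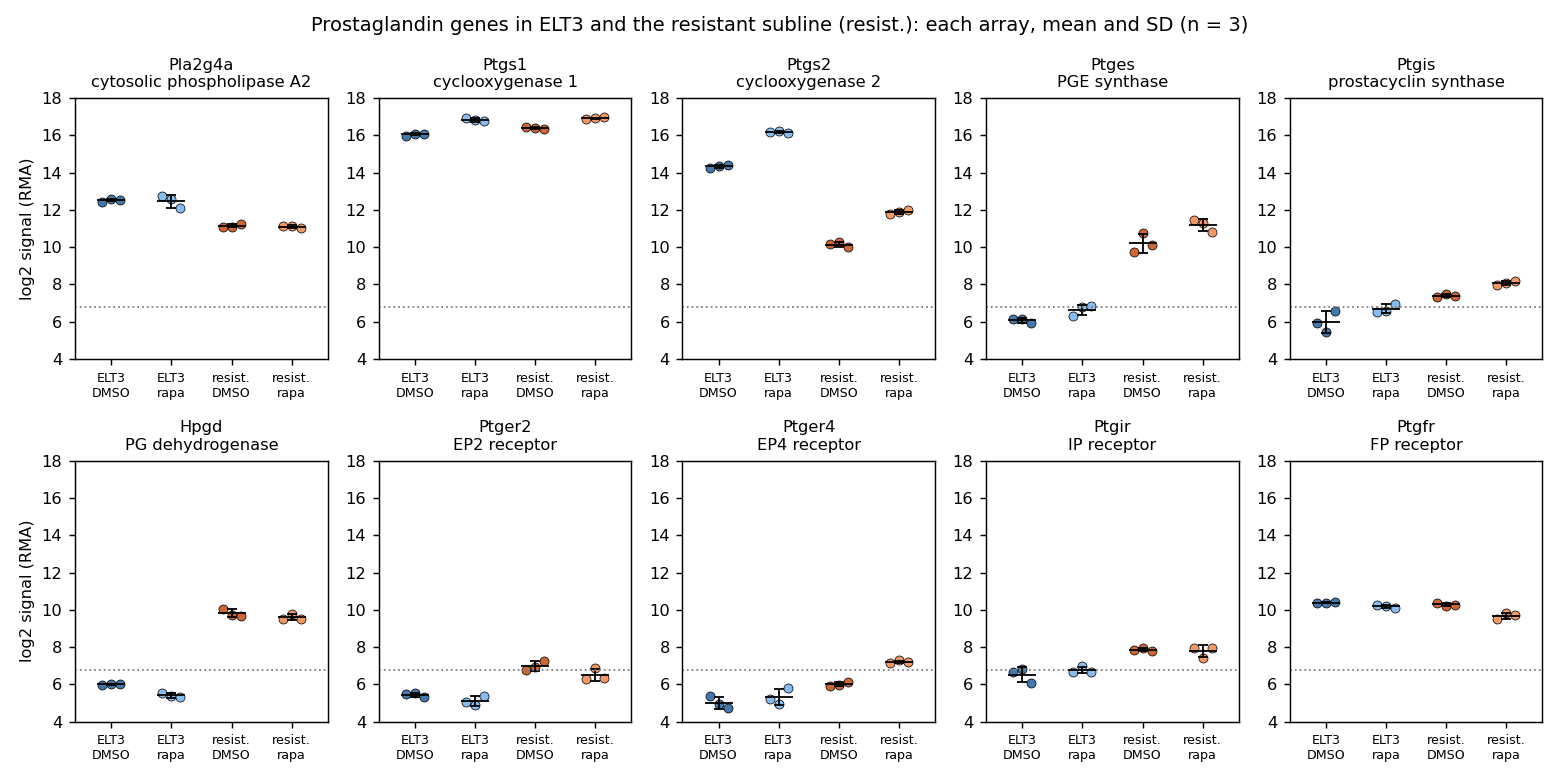
Log2 RMA signal (y axis) of each of the 10 genes in ELT3 and the resistant subline (resist.) in DMSO and rapamycin (rapa). Points are arrays, bars are the mean and SD of 3 arrays, and the dotted line is the median of all probe set means, 6.78. Ptgs2 lies between 14.25 and 16.24 in ELT3 and between 10.01 and 11.99 in the resistant subline, while Ptges and Hpgd lie lower in ELT3 than in the resistant subline on every array.

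Pla2g4a, of the first step of the pathway, was lower in the resistant subline. It encodes cytosolic phospholipase A2 alpha, the calcium-activated enzyme that releases arachidonic acid. Its log2 signal was 12.44, 12.57 and 12.52 in ELT3 in DMSO and 12.73, 12.56 and 12.08 in rapamycin. In the resistant subline it was 11.10, 11.09 and 11.24 in DMSO and 11.14, 11.12 and 11 in rapamycin. Every ELT3 array was above every array of the resistant subline, and replicate 3 of ELT3 in rapamycin was the lowest of that line. The line difference was -1.36 (SE 0.15, 2.58-fold lower, adjusted p = 2.13e-05) in DMSO and -1.37 (2.59-fold lower, adjusted p = 1.95e-05) in rapamycin. Rapamycin moved it by -0.05 (95% interval -0.38 to 0.27) in ELT3 and by -0.06 (-0.38 to 0.26) in the resistant subline, neither of which was called.

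The cyclooxygenases parted. Ptgs2 encodes COX-2, the form that growth factors and cytokines induce, and it had the widest range of group means of the set, 6.03 on the log2 scale. It read 14.25, 14.35 and 14.40 in ELT3 in DMSO and 16.17, 16.24 and 16.10 in ELT3 in rapamycin. It read 10.15, 10.26 and 10.01 in the resistant subline in DMSO and 11.77, 11.90 and 11.99 in the resistant subline in rapamycin. No 2 groups overlapped, and even the highest array of the resistant subline in rapamycin lay below the lowest ELT3 array in DMSO. The resistant subline was lower by 18.3-fold in DMSO (-4.20, SE 0.11, 95% interval -4.43 to -3.96, adjusted p = 5.83e-11) and by 19.5-fold in rapamycin (-4.28, adjusted p = 4.99e-11).

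Ptgs1 encodes COX-1, the form that most cells express at all times, and its probe set was among the brightest of the array, at the 99.4th percentile of mean signal. It read 15.98, 16.08 and 16.09 in ELT3 in DMSO and 16.46, 16.39 and 16.34 in the resistant subline in DMSO. In rapamycin it read 16.93, 16.79 and 16.75 in ELT3 and 16.87, 16.91 and 16.96 in the resistant subline. The lines did not overlap in DMSO and overlapped in rapamycin. The line difference of 0.35 in DMSO (adjusted p = 0.0222) was 1.27-fold, under the fold required, and in rapamycin it was 0.09 (95% interval -0.12 to 0.30, adjusted p = 0.587). The line with far less Ptgs2 signal thus had a Ptgs1 signal at or slightly above that of ELT3.

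The terminal synthases Ptges and Ptgis went the other way from Ptgs2. The 5 others measured, Ptges2, Ptges3, Ptgds, Hpgds and Tbxas1, were called in neither line difference, with values from -0.44 to 0.49. Ptges encodes microsomal prostaglandin E synthase 1, an inducible enzyme that makes PGE2 from prostaglandin H2. It read 6.13, 6.17 and 5.91 in ELT3 in DMSO and 6.31, 6.77 and 6.83 in ELT3 in rapamycin, and 9.73, 10.76 and 10.11 in the resistant subline in DMSO and 11.46, 11.27 and 10.81 in the resistant subline in rapamycin. All ELT3 arrays but 1 lay below the median of all probe set means, and all arrays of the resistant subline lay far above it. The line difference was 4.13 in DMSO (SE 0.25, 17.5-fold higher, adjusted p = 8.95e-08) and 4.55 with rapamycin (23.4-fold, adjusted p = 3.36e-08). Spread between plates was wide for this gene in the resistant subline in DMSO, with an SD of 0.52.

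Ptgis encodes prostacyclin synthase, which makes the vasodilator prostacyclin. It read 5.94, 5.43 and 6.59 in ELT3 in DMSO and 7.31, 7.48 and 7.37 in the resistant subline in DMSO, and 6.54, 6.59 and 6.97 in ELT3 in rapamycin and 7.97, 8.05 and 8.17 in the resistant subline in rapamycin. The lines did not overlap in either treatment, though ELT3 in DMSO spread over more than 1 log2 unit. The resistant subline was 2.65-fold higher in DMSO (1.40, adjusted p = 0.000692) and 2.57-fold higher in rapamycin (a difference of 1.36, adjusted p = 0.00077). With a test of each gene on its own spread, the call in DMSO was lost (adjusted p = 0.196 by the per-gene unequal-variance test).

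Hpgd, the 15-hydroxyprostaglandin dehydrogenase that inactivates PGE2, was far higher in the resistant subline. It read 5.99, 6.0 and 6.0 in ELT3 in DMSO and 5.54, 5.37 and 5.32 in ELT3 in rapamycin. In the resistant subline it read 10.07, 9.74 and 9.65 in DMSO and 9.50, 9.80 and 9.50 in rapamycin. All ELT3 arrays were dim and all arrays of the resistant subline were well above the median of the array. The difference was 3.82 in DMSO (SE 0.13, 14.1-fold higher, adjusted p = 6.52e-10) and 4.19 with rapamycin (18.2-fold, adjusted p = 2.71e-10). The resistant subline therefore held more signal for an enzyme that makes PGE2 and for one that removes it.

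Of the 4 receptors, the 3 that couple to cAMP were higher in the resistant subline and the FP receptor was not. Ptger2 encodes EP2 and read 5.47, 5.54 and 5.32 in ELT3 in DMSO and 6.77, 6.96 and 7.26 in the resistant subline in DMSO. In rapamycin it read 5.08, 4.88 and 5.37 in ELT3 and 6.30, 6.87 and 6.36 in the resistant subline. The lines did not overlap, and the difference was 2.94-fold in DMSO (1.55, adjusted p = 4.38e-05) and 2.63-fold in rapamycin (1.40, adjusted p = 0.000101). Ptger4 encodes EP4, which like EP2 answers to PGE2. It read 5.37, 4.95 and 4.71 in ELT3 in DMSO and 5.22, 4.96 and 5.82 in ELT3 in rapamycin, and 5.93, 5.96 and 6.14 in the resistant subline in DMSO and 7.14, 7.29 and 7.22 in the resistant subline in rapamycin. The resistant subline was 2.0-fold higher in DMSO (1.0, adjusted p = 0.00372) and 3.69-fold higher in rapamycin (1.88, adjusted p = 2.23e-05), with no overlap in either.

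Ptgir encodes the prostacyclin receptor IP. It read 6.69, 6.84 and 6.06 in ELT3 in DMSO and 7.87, 7.93 and 7.78 in the resistant subline in DMSO, and 6.68, 6.98 and 6.68 in ELT3 in rapamycin and 7.98, 7.42 and 7.95 in the resistant subline in rapamycin. The lines did not overlap, with the resistant subline 2.51-fold higher in DMSO (1.33, adjusted p = 0.000394) and 2.01-fold higher in rapamycin (1.01, adjusted p = 0.00278). Ptgis and Ptgir, synthase and receptor of prostacyclin, were thus both called higher in the resistant subline, and so were Ptges, Ptger2 and Ptger4 of the PGE2 branch. The other PGE2 receptors, Ptger1 (-0.57 in DMSO and -0.62 in rapamycin) and Ptger3 (-0.12 and 0.12), were called in neither line difference. Under the per-gene unequal-variance test the DMSO calls of Ptger4 (adjusted p = 0.131) and Ptgir (0.138) were lost, as were the rapamycin calls of Pla2g4a (0.102), Ptger4 (0.0992) and Ptgir (0.0987), which left 5 of the 8 in each treatment.

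Ptgfr, the FP receptor for prostaglandin F2 alpha, was the 1 receptor of the 4 not called between the lines. It read 10.35, 10.37 and 10.44 in ELT3 in DMSO and 10.39, 10.21 and 10.26 in the resistant subline in DMSO, and the 2 groups overlapped with a difference of -0.10 (95% interval -0.34 to 0.15, adjusted p = 0.618). In rapamycin it read 10.27, 10.18 and 10.08 in ELT3 and 9.49, 9.82 and 9.71 in the resistant subline, which did not overlap. That difference, -0.50 (adjusted p = 0.00512), was 1.42-fold and so under the fold required, and after quantile normalization of the deposited values it passed at -0.59. No filter on dim signals was used for these tests, and the mean over all arrays of Ptger2 and Ptger4 lay below the median of all probe sets.

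**Figure D2:**
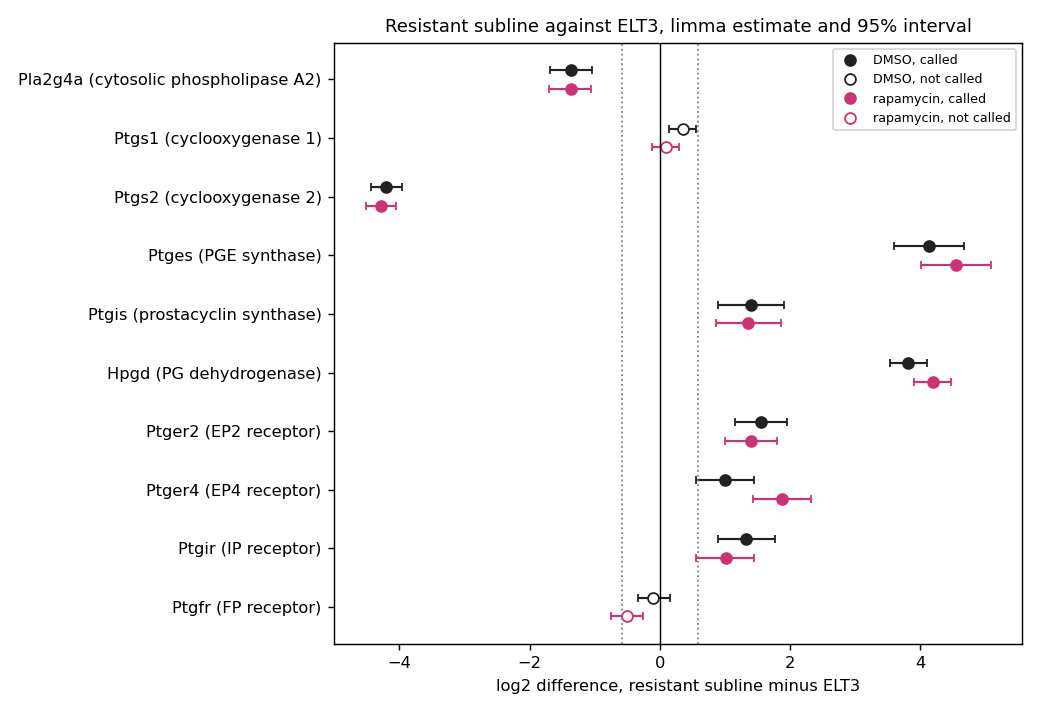
Log2 difference of the resistant subline minus ELT3 (x axis) for each gene in DMSO and in rapamycin, with the limma estimate as a point and its 95% interval as a bar. Filled points were called and the dotted lines mark 1.5-fold. Ptges and Hpgd are the farthest to the right and Ptgs2 is the farthest to the left in both treatments, from -4.20 to 4.13 in DMSO.

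The response to rapamycin asked what 24 hours of this mTORC1 inhibitor did in each line. In ELT3, 4 of the 10 genes were called, against 15.9% of all probe sets: Ptgs1, Ptgs2 and Ptgis rose (7.47% of probe sets did) and Hpgd fell (8.45% did). In the resistant subline, 4 were called, against 10.6%: Ptgs2, Ptges and Ptger4 rose (5.65% did) and Ptgfr fell (4.98% did). The arrays of the treatments did not overlap for 5 genes in ELT3 (37.7% of all probe sets) and for 6 in the resistant subline (34.9%). Ptgs2 was the only gene of the 10 called in both lines in 1 direction, as were 6.12% of all probe sets. The median response over the 10 genes was 0.29 in ELT3 and 0.23 in the resistant subline, beside 0.02 and -0.02 over all probe sets.

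Ptgs2 rose 3.57-fold in ELT3 (1.83, SE 0.11, 95% interval 1.60 to 2.07, adjusted p = 4.49e-07) and 3.36-fold in the resistant subline (1.75, 95% interval 1.51 to 1.98, adjusted p = 1.05e-06). The responses differed by -0.09 (95% interval -0.42 to 0.25, adjusted p = 0.814), so the rise in the resistant subline started from a level far below that of the parent and was of similar size within that interval. Its order of group means was ELT3 in rapamycin, ELT3 in DMSO, the resistant subline in rapamycin and the resistant subline in DMSO, with gaps of 1.83, 2.45 and 1.75 whose intervals all lay above 0. Ptgs1 rose 1.71-fold in ELT3 (0.77, adjusted p = 9.97e-05). In the resistant subline it was higher by 0.52 (1.43-fold, adjusted p = 0.00276), under the fold required, and the responses differed by -0.26 (adjusted p = 0.341).

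For Ptges the difference was 0.56 in ELT3 (1.48-fold, adjusted p = 0.126) and the rise 0.98 in the resistant subline (1.97-fold, adjusted p = 0.0159). The call in the resistant subline rested on single plates: without DMSO replicate 1 or 3 of the resistant subline the adjusted p was 0.0672 or 0.053, and without its rapamycin replicate 1 or 2 it was 0.0701 or 0.055. The per-gene unequal-variance test gave 0.24. For Ptgis the values were 0.71 in ELT3 (1.64-fold, adjusted p = 0.0397), where the treatments overlapped, and 0.67 in the resistant subline (1.59-fold, adjusted p = 0.0667), where they did not. The call in ELT3 was lost after quantile normalization (adjusted p = 0.0567) or median centring (0.0599) and without any 1 of 11 of the 12 plates, whichever was left out but DMSO replicate 3 of ELT3, and the responses differed by -0.04 (not called). The rise in the resistant subline gained a call in some alternatives and stayed uncalled in the others. Among the gains were array weights (adjusted p = 0.0382), the fit on only the groups compared (0.00626) and the per-gene unequal-variance test (0.0366).

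Hpgd fell by 0.59 in ELT3 (1.51-fold, adjusted p = 0.00578), on the edge of the fold required, and the value went under it without ELT3 rapamycin replicate 2 (-0.57) or 3 (-0.55) and with array weights (-0.58). In the resistant subline it moved by -0.22 (adjusted p = 0.32). Pla2g4a, described above, and Ptgir were called in neither line. For Ptgir the response was 0.25 in ELT3 (adjusted p = 0.437) and -0.08 in the resistant subline (adjusted p = 0.869).

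Among the receptors for PGE2, Ptger4 rose 2.31-fold in the resistant subline (1.21, adjusted p = 0.0016), with all 3 rapamycin plates above all 3 DMSO plates. In ELT3 the difference was 0.32 (adjusted p = 0.305), and the treatments overlapped. The difference between these responses was 0.88 (95% interval 0.24 to 1.52, unadjusted p = 0.0109, adjusted p = 0.122) and was not called. It was called without ELT3 rapamycin replicate 3 (1.12, adjusted p = 0.0303), the array with the highest Ptger4 signal of that line, and with array weights. Ptger2 went the other way, by -0.33 in ELT3 (adjusted p = 0.229) and -0.49 in the resistant subline (adjusted p = 0.0936), with neither called.

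Ptgfr fell 1.53-fold in the resistant subline (-0.62, adjusted p = 0.00226) and differed by -0.21 in ELT3 (adjusted p = 0.211). Without replicate 1 of the resistant subline in DMSO (-0.57) or in rapamycin (-0.53) the fall was under 1.5-fold. The responses differed by -0.41 (unadjusted p = 0.0246, adjusted p = 0.185). Of the 10 genes, none had a called difference between the responses by limma, against 4.23% of all probe sets (2.17% higher and 2.06% lower in the resistant subline), and 2, Ptger4 and Ptgfr, had an unadjusted p under 0.05.

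**Figure D3:**
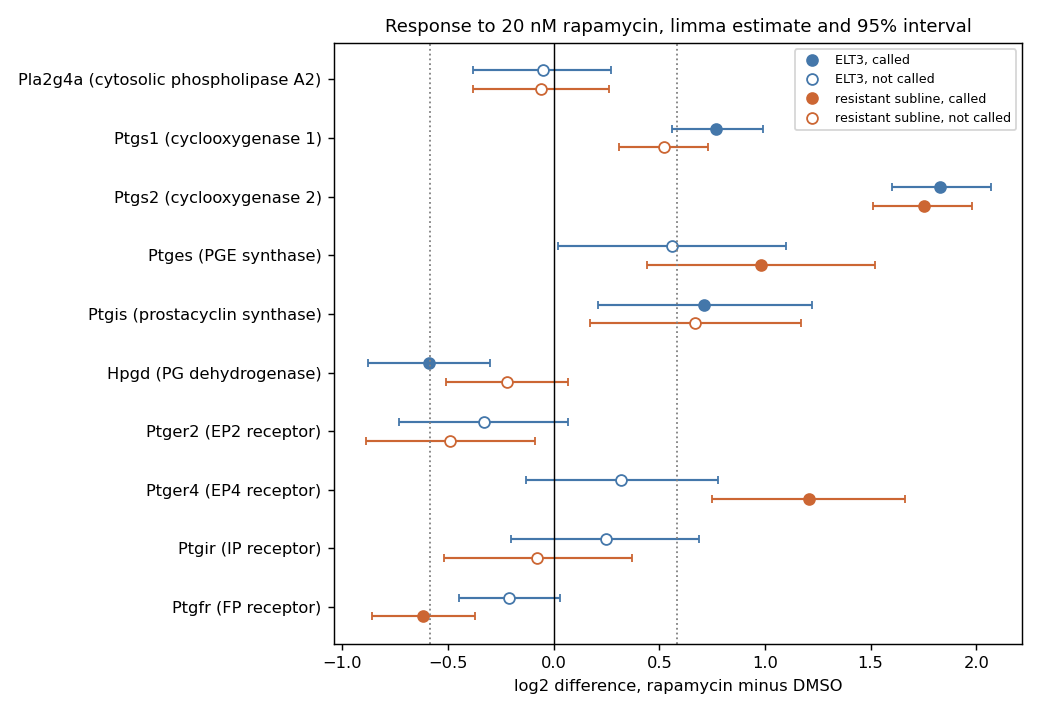
Log2 difference of rapamycin minus DMSO (x axis) for each gene in ELT3 and in the resistant subline, with the limma estimate as a point and its 95% interval as a bar. Filled points were called and the dotted lines mark 1.5-fold. The Ptgs2 points, 1.83 and 1.75, lie farthest to the right, and Ptger4 is filled in the resistant subline only.

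Across the 4 groups the 10 genes fell into different orders. Ranges of group means were 5.11 for Ptges and 4.41 for Hpgd, then 2.21 for Ptger4, 2.07 for Ptgis, 1.88 for Ptger2, 1.42 for Pla2g4a, 1.33 for Ptgir, 0.86 for Ptgs1 and 0.71 for Ptgfr. For Ptgis, as for Ptgs2 and Ptges, every neighbouring pair of groups was apart with an interval above 0, with the resistant subline in rapamycin the highest and ELT3 in DMSO the lowest for Ptgis and Ptges. For Pla2g4a and Ptgir the treatments of a line could not be told apart and the gap between the lines was 1.31 and 1.01. For Ptgs1 the rapamycin groups of the lines differed by 0.09 (-0.12 to 0.30) and stood above the DMSO groups.

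The genes whose pattern over the 12 arrays was most like that of the 3 members with the widest ranges are given as a description, since the arrays share lines and treatments. Closest to Ptgs2 were the glucose transporter Slc2a3 (Pearson r 0.9974), Lims2 (0.9964) and the calcium channel subunit Cacnb3 (0.9960). Group means of Slc2a3 were 12.47 and 13.57 in ELT3 and 9.79 and 10.88 in the resistant subline, DMSO before rapamycin. Closest to Ptges were Prr5, a subunit of mTORC2 (0.9930), Cd3e (0.9912) and the ETS factor Etv1 (0.9911), and closest to Hpgd were the water channel Aqp1 (0.9965), Olfml3 (0.9958) and Emb (0.9953).

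The rest of the prostanoid pathway, 25 genes measured of 29 listed from textbook knowledge, moved in both directions. Between the lines 2 were higher and 2 lower in DMSO, and 3 were higher and 3 lower in rapamycin. Under rapamycin 3 rose and 7 fell in ELT3, and 5 rose and 6 fell in the resistant subline. The median difference over the 25 was -0.08 in each line difference, -0.01 in the ELT3 response and 0.00 in the response of the resistant subline. The shares of all probe sets called in these comparisons are those given above. The values of the 8 genes with the largest changes follow by role.

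Several of these genes encode enzymes that free fatty acids. Pla2g2a, the secreted group IIA phospholipase A2, read 4.21, 4.52 and 4.20 in ELT3 in DMSO, 5.35, 4.79 and 4.85 in ELT3 in rapamycin, 4.72, 4.01 and 4.76 in the resistant subline in DMSO, and 8.77, 8.46 and 8.99 in the resistant subline in rapamycin. It was dim in 3 groups and well above them in the other one. Its fold changes are of signal, since a level this dim may be background. It rose 18.9-fold in the resistant subline (4.24, SE 0.22, adjusted p = 3.82e-07) and differed between the responses by 3.55 (adjusted p = 0.000139). Its rise of 0.69 in ELT3 (adjusted p = 0.0399) was lost after median centring (0.0642) and without any 1 of 5 single plates. Pla2g5, another secreted form, was 2.89-fold higher in the resistant subline in rapamycin (1.53, adjusted p = 0.000198) and rose 2.11-fold there with the drug (1.08, adjusted p = 0.00452). Its line difference in DMSO (0.69, adjusted p = 0.0398) was lost without any 1 of 8 single plates. Pla2g10, a secreted form too, was called in no comparison, at group means of 3.61 to 3.90. Pla2g6, the calcium-independent phospholipase A2, rose 2.22-fold in ELT3 (1.15, adjusted p = 0.000965) with 0.58 in the resistant subline (adjusted p = 0.0649).

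Mgll, the monoacylglycerol lipase, which also supplies arachidonic acid in some tissues, read 9.90, 9.87 and 10.13 in ELT3 in DMSO and 11.47, 11.62 and 11.53 in the resistant subline in DMSO. In rapamycin it read 10.20, 10.31 and 10.72 in ELT3 and 10.14, 10.36 and 10.23 in the resistant subline. The lines were apart in DMSO (2.98-fold higher in the resistant subline, 1.58, adjusted p = 3.91e-06) and overlapped in rapamycin (-0.17, adjusted p = 0.451). It fell 2.46-fold in the resistant subline (-1.30, adjusted p = 6.37e-05), and the responses differed by -1.75 (adjusted p = 0.000727).

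Lpcat3, which builds arachidonic acid into phospholipids, fell 1.98-fold in ELT3 (-0.99, adjusted p = 2.23e-05) and 2.11-fold in the resistant subline (-1.07, adjusted p = 1.79e-05). Acsl4, which activates it with coenzyme A, fell 1.93-fold in ELT3 (-0.95, adjusted p = 9.69e-05), with -0.43 in the resistant subline (adjusted p = 0.0254, under the fold required). Abcc4, a pump that exports prostaglandins, fell 1.79-fold in ELT3 (-0.84, adjusted p = 0.0004) and 2.17-fold in the resistant subline (-1.12, adjusted p = 8.79e-05). Ptger1, the EP1 receptor, rose 2.64-fold in ELT3 (1.40, adjusted p = 0.00244) and 2.56-fold in the resistant subline (1.35, adjusted p = 0.00459). Its group means, 4.68 to 6.66, all lay below the median of all probe set means. Both calls were lost under the per-gene unequal-variance test (adjusted p = 0.209 in ELT3 and 0.0753 in the resistant subline).

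**Figure D4:**
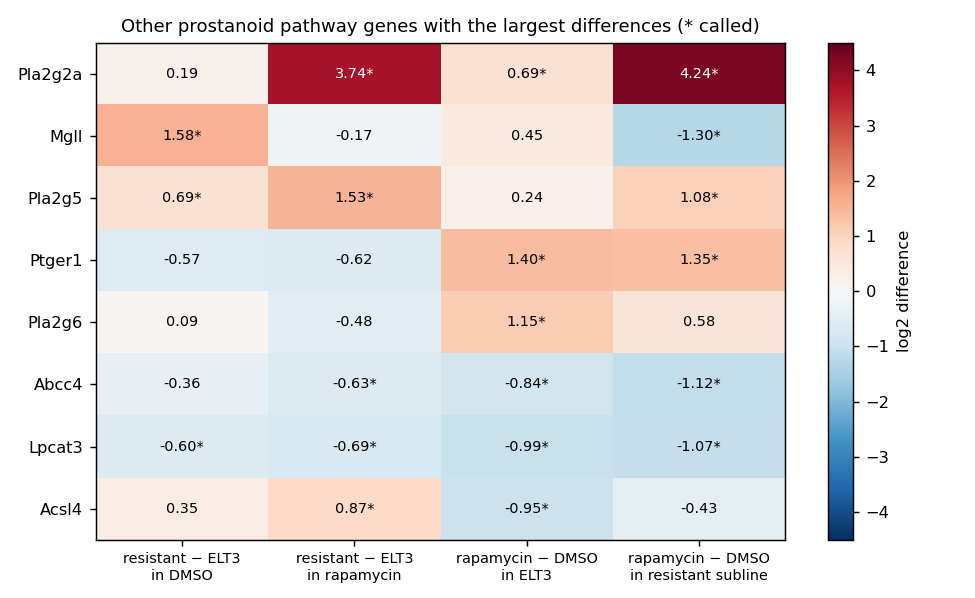
Log2 differences of the 8 other prostanoid pathway genes with the largest changes, in the 2 line differences and the 2 rapamycin responses, as colour and printed value, with an asterisk where called. Pla2g2a reaches 4.24 in the resistant subline and 0.69 in ELT3, while Lpcat3 and Abcc4 fell in both lines.

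The leukotriene branch, which starts from the same arachidonic acid, had 8 genes measured. In the resistant subline 1 was higher in DMSO and 2 in rapamycin, and none was lower in either. Of all probe sets 7.3% and 8.86% were higher, and 7.56% and 7.92% lower. With rapamycin 1 fell in ELT3 (8.45% of all probe sets did) and 1 rose in the resistant subline (5.65% did). The medians over the 8 were -0.09 and 0.09 in the line differences and -0.21 and 0.03 in the responses. Alox5ap, the protein that presents arachidonic acid to 5-lipoxygenase, read 3.81, 4.54 and 4.68 in ELT3 in DMSO and 4.08, 4.37 and 3.46 in rapamycin, and 4.97, 5.90 and 5.59 in the resistant subline in DMSO and 7.05, 6.97 and 7.33 in rapamycin. It was dim in ELT3 and highest in the resistant subline with the drug, where its signal was 8.88-fold above that of ELT3 (3.15, adjusted p = 4.68e-06), itself dim enough to be background. Its line difference in DMSO was 1.14 (adjusted p = 0.0137). That call was lost without DMSO replicate 2 of the resistant subline (adjusted p = 0.0593) or 1 of ELT3 (0.0608). Alox5ap rose 3.10-fold in the resistant subline (1.63, adjusted p = 0.00201). Alox5, the gene of 5-lipoxygenase itself, had group means of 3.69 to 3.86, dim enough to be background. It was called in no comparison.

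Genes of cAMP signalling, the arm downstream of EP2, EP4 and IP, were counted over 17 measured of 18. In DMSO 1 was higher and 5 were lower in the resistant subline (7.3% and 7.56% of all probe sets were). The 5 lower were the adenylyl cyclase genes Adcy3 (-0.63), Adcy6 (-0.87) and Adcy7 (-1.06), the phosphodiesterase gene Pde4d (-0.62) and Akap12. The Pde4d call was lost without some single plates. In rapamycin 2 of the 17 were higher and 3 lower (8.86% and 7.92% were). Of these cyclases only Adcy6 was called there (-0.76), with -0.27 for Adcy3 and -0.18 for Adcy7. Rapamycin raised 4 and lowered 1 in ELT3 (7.47% and 8.45% of all probe sets). It raised 7 and lowered none in the resistant subline (5.65% and 4.98%). The medians over the 17 were 0.08 and -0.03 in the line differences and 0.35 and 0.37 in the responses. Of the 7, the calls of Adcy7, Adcy6 and Pde4a were each lost without 1 or more single plates. The list mixes enzymes that make cAMP, such as Adcy6, with enzymes that break it down, such as Pde4a. Its counts therefore give no direction for cAMP. Akap12, a scaffold for protein kinase A, was 4.91-fold lower in the resistant subline in DMSO (-2.30, adjusted p = 2.57e-05) and rose in ELT3 (1.91, adjusted p = 0.000162) and in the resistant subline (1.5, adjusted p = 0.00145). The cAMP-inducible nuclear receptors Nr4a1 (1.47 and 1.22) and Nr4a2 (1.14 and 1.15) rose in ELT3 and in the resistant subline. Areg, an EGF receptor ligand, rose 3.62-fold in the resistant subline (1.86, adjusted p = 0.000232) with 0.38 in ELT3 (adjusted p = 0.308).

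Of 11 known inducers of Ptgs2 measured, 2 were higher and 3 lower in the resistant subline in DMSO (7.3% and 7.56% of all probe sets were). In rapamycin 2 were higher and 1 lower (8.86% and 7.92% were). The medians were 0.17 and 0.24 in the line differences and 0.11 and 0.21 in the responses. The transcription factor genes Cebpd (2.19, adjusted p = 8.23e-07) and Jun (1.75, adjusted p = 4.91e-05) were higher in the resistant subline in DMSO, and 3 were lower there, as Ptgs2 was: the cytokine genes Il6 (-1.01, adjusted p = 0.00694) and Il1b (-0.80, adjusted p = 0.0185) and the AP-1 gene Fos (-0.71, adjusted p = 0.00533). These 3 genes were dim, with group means of 4.92 to 6.18 for Il6, 3.74 to 4.55 for Il1b and 5.07 to 5.78 for Fos. The call of Il1b was lost without DMSO replicate 1 or 2 of ELT3 or 3 of the resistant subline, and that of Fos without DMSO replicate 1 of the resistant subline. With rapamycin Egr1, an early growth response factor, rose 1.97-fold in ELT3 (0.98, adjusted p = 0.00324) and 2.09-fold in the resistant subline (1.06, adjusted p = 0.00281). It was 1 of 2 inducers that rose in ELT3, beside Cebpd (0.69, under 1.5-fold without DMSO replicate 1 or rapamycin replicate 3), and the only one called in the resistant subline. Of all probe sets, 7.47% rose in ELT3 and 5.65% in the resistant subline.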

How the data were processed

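The authors hybridised RNA of 12 samples to rat Clariom S arrays and deposited log2 signals, made with RMA, 1 per probe set. No source used here gives the array's genome build, so chromosomes and sequences come from RefSeq (GRCr8). Probe sets were named from the platform annotation, and 15049 of 23188 had 1 symbol. All 10 members had 1 probe set, so no other could be tried. The number of arrays limits the precision.

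The deposited values were used without further normalization. Groups came from the labels. limma 3.58.1 in R 4.3.3 fitted 4 group means (8 residual and 3.91 prior degrees of freedom) with 5 contrasts and was tested on simulated data. The members, the gene lists, the tests and the alternatives were chosen with earlier results of these data known, so no list was tested as a set. Beside the members, genes of a list were named with values if called at least once, at most the 8 with the largest absolute change per list. A few others were given beside them for comparison, and marker genes served as checks. Tables and plots used Python 3.11.15, pandas 2.3.3 and Matplotlib 3.10.9.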

Additional observations from a re-analysis of the deposited data

Results flagged for a closer look

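The response to rapamycin differed between the lines for 5 genes of the other pathway, leukotriene, cAMP and inducer lists, by the limma test of the difference itself (response of the resistant subline minus response of ELT3, log2 scale), and for none of the 10 prostaglandin genes. It was also called for 5 marker genes: Krt8 (-1.79), Acta2 (-1.02), Tagln (0.81), Cd68 (-1.36) and Pdgfra (-0.87). Of all probe sets, 4.23% had such a call. For Pla2g2a the difference was 3.55 (adjusted p = 0.000139). For Mgll it was -1.75 (adjusted p = 0.000727). For Alox5ap it was 2.01 (adjusted p = 0.0196), and the call was lost without rapamycin replicate 3 of the resistant subline (1.90, adjusted p = 0.0505) or DMSO replicate 2 of ELT3 (1.91, adjusted p = 0.0531). For Areg it was 1.48 (adjusted p = 0.0325), which was lost without any 1 of 8 single plates, with adjusted p-values of 0.0547 to 0.0797. For Cebpd it was -1.19 (adjusted p = 0.0168), with a rise of 0.69 in ELT3 and a value of -0.50 in the resistant subline (adjusted p = 0.058). Groups of 3 arrays were too small to look, gene by gene, for single arrays far from their group. Over all probe sets, the limma array weight was lowest for rapamycin replicate 3 of ELT3, at 0.436. The other arrays had weights of 0.754 to 1.65.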

How the results depend on the processing

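Of the 50 differences of the 10 genes (10 genes in 5 comparisons), 32 kept their call or lack of one in every alternative run. No difference called in the main or the alternative run changed direction. Some uncalled ones near 0 did, such as the Pla2g4a response in ELT3, which ran from -0.19 to 0.14 without single arrays. Over 1220 alternative values 47 lost a call and 15 gained one. Counts of called prostaglandin genes were 8 in each line difference, 4 in each rapamycin response and 0 for the difference between the responses. The per-gene unequal-variance test gave 5 in DMSO, 5 in rapamycin and 2 in the ELT3 response. A threshold of 2-fold gave 1 in the ELT3 response and 2 in that of the resistant subline, and limma treat gave 1 in each. In the line differences, Ptger4 in DMSO lost its call at 2-fold and with limma treat (adjusted p = 0.41). Ptgir in rapamycin lost its call with limma treat (adjusted p = 0.345). Of the 20 line differences of the 10 genes, 12 kept their call or lack of one in all alternatives. Array weights gave 1 called difference between the responses, Ptger4. Without single arrays the counts were 8 in both line differences, 2 to 4 in the ELT3 response, 2 to 5 in that of the resistant subline and 0 to 1 for the difference between the responses. The 2 came without rapamycin replicate 2 or 3 in ELT3 and without replicate 1 of either treatment in the resistant subline.

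Of the 25 other pathway genes, 4, 6, 10, 11 and 2 were called in the order above. A threshold of 2-fold gave 1, 2, 2 and 6 in the first 4 comparisons, limma treat 1, 2, 1 and 4, and the per-gene test 2, 3, 6 and 7. No fold threshold gave 7 in the DMSO line difference, and dropping dim probe sets gave 7 in the response of the resistant subline and 1 for the difference between the responses. Without single arrays the DMSO count was 2 to 4, with 2 without DMSO replicate 2 of ELT3, and the others were 5 to 8, 8 to 10, 10 to 11 and 2. The Hpgd mean of ELT3 in DMSO moved from 6.0 to 6.04 with median centring, an alternative added after seeing the data. The cause of these changes was not tested, except that stricter thresholds leave fewer calls by construction.

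With the replicate number as a block the counts were 8, 8, 4, 5 and 0 for the prostaglandin genes, Ptgis gaining a call in the resistant subline (adjusted p = 0.0455), and 4, 6, 10, 11 and 2 for the others. Of 18 same-numbered pairs, 4 had a correlation of deviations over 0.1, and 7 of 12 samples correlated best with their own number. These correlations ran from -0.1237 to 0.2155 for same-numbered pairs and from -0.2084 to 0.1345 for the others. With so few arrays, such values cannot decide whether the numbers pair the samples. The per-gene test was not run for the difference between the responses, and the fit on only the groups compared cannot be made for it. Dim signals, such as those of Ptger2 and Ptger4 in ELT3, limit what a fold change can show.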

Other observations

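Ptgs2 and Pla2g4a, the 2 members lower in the resistant subline, lie next to each other on rat chromosome 13, with 0 annotated protein-coding genes between them. This was looked at after their values were seen. Of the 10 nearest measured genes, 5 on each side, the line difference was called for 4 in DMSO (14.9% of all probe sets) and for 3 in rapamycin (16.8%), in both directions. Rgs2, a regulator of G protein signalling, was higher in the resistant subline by 2.31 in DMSO and 3.19 in rapamycin, and Hmcn1 by 1.25 and 1.94. Brinp3 was lower, by -0.83 and -1.0, and Rgs21 was lower in DMSO (-1.28).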
